A study of Homo sapiens with 172 samples.

Results

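The 4 HOX gene clusters were examined for contact with the nuclear lamina, the meshwork of lamin proteins that lines the nucleus, in single cells of the human leukaemia line KBM7. Of the HOX genes, 38 were listed, with 10 in HOXA on chromosome 7, 10 in HOXB on chromosome 17, 9 in HOXC on chromosome 12 and 9 in HOXD on chromosome 2. The clusters were set by position in hg19 coordinates, and every 100 kb bin that overlapped an interval was taken. This gave 9 of 26414 covered bins, meaning bins with a value above 0 in at least 1 column, of which 2 cover HOXA (7:27100001 to 27300000), 3 cover HOXB (17:46600001 to 46900000), 2 cover HOXC (12:54300001 to 54500000) and 2 cover HOXD (2:176900001 to 177100000). The bins within 2 Mb on each side, 159 with values in all, served as flanks.

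All samples belonged to 1 group, haploid cells of clone 5-5, so the report describes a single clone and makes no comparison between treatments. Every cell carried Dam methyltransferase fused to LaminB1 and had Fucci cell cycle markers. The fusion was stabilised with 0.5 nM Shield1 for 15 h, and single cells positive for both markers were sorted from the smallest 2%. Dam methylates the adenine of GATC near the lamina, DpnI cuts the methylated sites, and the fragments are amplified and sequenced. No separate cultures were named, so each SD is taken over cells and gives the variation from cell to cell. KBM7 comes from a chronic myeloid leukaemia, and a haploid cell carries a single copy of each cluster until it is replicated.

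HOX genes encode homeodomain transcription factors that give cells their position along the body axis. In each cluster the order of the genes along the chromosome follows the order of their use along the axis, from HOXB1 and HOXA2 in the hindbrain to HOXA13 and HOXD13 in the distal limb and the genital tract. In many tissues the clusters are held silent by Polycomb proteins. In blood, HOXA9 and HOXA10 are active in stem and progenitor cells and stay on in many myeloid leukaemias, and HOXB4 promotes the growth of blood stem cells. RNA was not measured here, so which of the genes were active in these cells is unknown.

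Dam can mark only GATC, so promoters of the genes at the ends of the clusters are shown to let a reader see how the site is placed. The windows hold the 250 bases before the start of the gene, from RefSeq (GRCh38.p14, a different build from the bins), for the outermost listed genes with an entry. GATC is in capitals.
HOXA2 (chr7:27102684-27102933, - strand): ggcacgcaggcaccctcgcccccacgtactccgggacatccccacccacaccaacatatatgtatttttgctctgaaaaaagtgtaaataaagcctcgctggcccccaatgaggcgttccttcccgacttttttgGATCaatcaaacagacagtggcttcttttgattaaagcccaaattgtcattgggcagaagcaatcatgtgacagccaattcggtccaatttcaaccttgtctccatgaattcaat
HOXA13 (chr7:27200092-27200341, - strand): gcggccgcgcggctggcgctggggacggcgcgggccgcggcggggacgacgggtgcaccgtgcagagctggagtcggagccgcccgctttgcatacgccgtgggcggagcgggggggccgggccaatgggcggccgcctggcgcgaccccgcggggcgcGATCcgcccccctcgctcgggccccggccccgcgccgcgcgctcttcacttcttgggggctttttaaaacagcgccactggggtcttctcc
HOXB1 (chr17:48531012-48531261, - strand): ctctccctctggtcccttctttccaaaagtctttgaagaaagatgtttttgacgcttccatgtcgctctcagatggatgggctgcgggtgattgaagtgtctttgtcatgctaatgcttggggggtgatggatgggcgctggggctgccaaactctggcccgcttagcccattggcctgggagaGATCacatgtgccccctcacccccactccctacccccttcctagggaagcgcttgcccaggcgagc
HOXC4 and HOXC5 (chr12:54016638-54016887, + strand): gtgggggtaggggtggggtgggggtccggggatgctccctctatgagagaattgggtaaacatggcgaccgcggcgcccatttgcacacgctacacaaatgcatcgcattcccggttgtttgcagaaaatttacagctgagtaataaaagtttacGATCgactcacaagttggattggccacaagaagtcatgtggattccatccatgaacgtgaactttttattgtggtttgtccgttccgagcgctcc
HOXD13 (chr2:176092471-176092720, + strand): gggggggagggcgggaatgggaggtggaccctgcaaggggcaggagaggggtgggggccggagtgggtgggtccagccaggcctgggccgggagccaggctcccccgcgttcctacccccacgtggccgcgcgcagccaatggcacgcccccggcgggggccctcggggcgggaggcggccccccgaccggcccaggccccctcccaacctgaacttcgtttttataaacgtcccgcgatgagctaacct
HOXD1 (chr2:176188418-176188667, + strand): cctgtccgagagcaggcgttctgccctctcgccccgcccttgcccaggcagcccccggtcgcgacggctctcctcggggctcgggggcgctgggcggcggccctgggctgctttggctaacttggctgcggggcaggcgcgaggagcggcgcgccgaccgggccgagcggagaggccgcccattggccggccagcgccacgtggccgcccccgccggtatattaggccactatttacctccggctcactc
HOXA2, HOXA13, HOXB1 and the window shared by HOXC4 and HOXC5 each held 1 GATC, and the windows of HOXD13 and HOXD1 held 0. Of the 38 genes, 20 had an entry, with 26 distinct windows, of which 10 (38.5%) held a GATC. The motif reads the same on both strands, and it was present in 35.8% of 34943 promoter windows of the same length. The number of CG dinucleotides was higher, with a median of 19.5 in the HOX windows against 11 in all windows. These letters describe the windows only, since the measurement is per 100 kb bin.

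What the table allows per bin is given by its expectation, which could be worked back as whole numbers. They are on a relative scale with the lowest covered bin at 1, and are not counts of reads. The HOX bins had expectations from 327 to 416, all 9 above the median of 316 over the covered bins. A ratio of 1 in a HOX bin stood for 2.75 to 3.50 reads in the median cell, depending on the bin. In 12 or 13 of the 84 cells it stood for under 1 read, and in such cells a missed contact and an absent contact cannot be told apart. A single read can also be called a contact. Cell 22 at HOXA (ratio 2.34) and cell 56 at HOXB (ratio 1.03) were called on 1 read in the deeper column.

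Facts of the whole table bear on these values as follows. The 168 columns fell into 84 pairs of columns numbered 86 apart that differed by less than the sampling noise (chi-square per bin under 1 in all 84 pairs). Each column correlated best with its partner, so a pair was averaged and counted as 1 cell. Per cell, the deeper column held 7134 to 418937 reads (median 63700), and cells had 27.8% ± 6.55 (SD, n = 84) of covered bins in contact. Some cells had few reads on chromosomes that carry a cluster, and none of these had a HOX contact. The deeper column of cell 69 had 4.16, 3.67 and 4.49% of the expected reads on chromosomes 2, 7 and 12, cell 79 had 21.5 and 26.1% on 7 and 12, and cell 63 had 6.93% on 17. Cell 48 had contacts spread over both flanks of HOXA, at 60% of lower and 70% of upper flank bins, and it supplied a contact to HOXA and to HOXB. Without cells 48, 54 and 56 the mean frequency was 1.85% for HOXA and 1.65% for HOXB, and without cells 63, 69 and 79 it was 6.17% for HOXD. The direction of these changes was fixed in advance. Cell 48 held a HOXA contact, cells 48 and 56 held HOXB contacts, and cells 63, 69 and 79 held no HOX contact.

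All 4 clusters were rarely called in contact with the lamina. A bin was called in contact in a cell at an observed over expected ratio of at least 1, and its contact frequency is the percent of the 84 cells in contact. The HOX bins ranged from 0 to 7.14% with a median of 2.38%, whereas the median over the covered bins was 16.7%. Under 5% of cells had contact at 8 of the 9 bins, against 36.7% of all covered bins, and all 9 were under 20%, against 52.3%. There were 3 bins in contact in no cell, against 6.19% of covered bins. With the 170 bins at 0 in every column counted in, 37.1% of bins were under 5%, 52.6% were under 20% and 6.79% were in contact in no cell. The 9 bins are 4 loci, and neighbouring bins are not independent. These frequencies depend on the cutoff, and no bin can fall when the cutoff is lowered. The 2 Mb flanks of HOXD rose from 23.6% at a ratio of 1 to 35.7% at 0.5. The median over the covered bins is not given at 0.5, so rarity against it was not tested there. At a ratio of 0.5 the mean over the HOXD bins was 21.4%, and 48.8% of cells had some HOX bin in contact, 36.9% at HOXD, against 5.95, 22.6 and 11.9% at a ratio of 1.

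HOXA holds genes from HOXA2, a hindbrain and second-arch patterning gene, to HOXA13, which shapes the hand, foot and genital tract. Its bin 7:27100001 to 27200000 was in contact in 0 of 84 cells, a count that allows up to 3.57% by the limit of 3 cells and up to 4.30% by the exact 95% interval. The bin 7:27200001 to 27300000 was in contact in 4 cells, or 4.76% (exact 95% interval 1.31 to 11.7%). Ratios in the 84 cells had a lowest value of 0, a median of 0 and a highest of 0.886 in the first bin and 2.34 in the second, with means of 0.0342 ± 0.123 and 0.128 ± 0.353 (SD). The intervals of the bins overlap, so the 2 bins could not be told apart. Contacts came from cells 4, 12, 22 and 48.

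HOXB holds HOXB1, used in a single hindbrain segment, the blood stem cell gene HOXB4, and HOXB13, a prostate and hindgut gene set apart from the rest of the cluster. Its 3 bins were in contact in 0, 4 and 2 cells, which is 0, 4.76 and 2.38%. The ratio had a median of 0 in each, and the highest values were 0.889, 1.76 and 1.41. In total 6 of 84 cells had a HOXB bin in contact (7.14%, exact 95% interval 2.67 to 14.9%). No cell had more than 1 HOXB bin in contact.

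HOXC holds HOXC8 and HOXC9, which pattern the trunk, and HOXC13, known for hair and nail growth. It had the fewest contacts of the clusters, in 1 and 0 of 84 cells for its 2 bins, or 1.19 and 0%. The only contact, in cell 72, had a ratio of 1.15. Over both bins the mean ratio was 0.0375 ± 0.125 (SD, n = 84). The exact interval for the share of cells with a contact was 0.0301 to 6.46%. It overlaps those of HOXA and HOXB, and narrowly that of HOXD (5.86 to 20.8%). By this measure HOXC is not shown to be lower than these, and the share counts 3 bins for HOXB against 2 for each other cluster.

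HOXD holds HOXD1 to HOXD4 at its upper end and HOXD8 to HOXD13, which pattern the limb and trunk, toward its lower end. Its bins were in contact in 4 and 6 cells, or 4.76% (1.31 to 11.7%) and 7.14% (2.67 to 14.9%), with highest ratios of 1.44 in cell 9 and 6.57 in cell 18. In total 10 cells (11.9%, exact 95% interval 5.86 to 20.8%) had 1 HOXD bin in contact, and 0 of 84 had both. HOXD carried more signal below the cutoff than the other clusters. Its 2 bins had a ratio above 0 in 41 and 38 cells (48.8 and 45.2%), against 8 to 23 cells (9.52 to 27.4%) for the 7 bins of the other clusters. The median over the covered bins was 48.8% of cells. By this share of cells above 0, HOXD was near the median bin and the other clusters were under it. By contact frequency HOXD was under the median bin too, at 4.76 and 7.14% against 16.7%. A median ratio of 0 is not particular to HOX bins. The mean ratio over the HOXD bins was 0.289 ± 0.479, against 0.0812 ± 0.192 for HOXA, 0.0606 ± 0.135 for HOXB and 0.0375 ± 0.125 for HOXC (SD, n = 84).

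**Figure D1:**
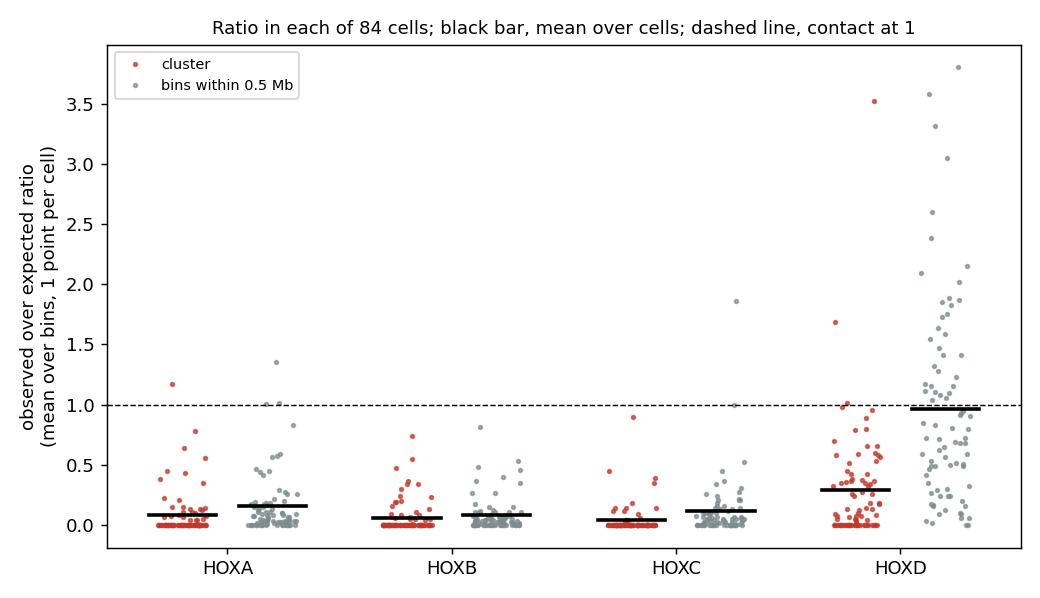
Observed over expected ratio in each of 84 cells, as the mean over the bins of a cluster (red) and over the bins within 0.5 Mb on both sides (grey). Black bars are means over cells and the dashed line is the cutoff for contact. Cluster means are 0.0812, 0.0606, 0.0375 and 0.289 from HOXA to HOXD, against 0.154, 0.0807, 0.111 and 0.964 for the bins beside them.

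The depth of cells affects how these contacts are read. Of the 21 contacts of a cell with a cluster, 12 rested on at most 3 reads in the cluster in the deeper column, among them 9 of the 11 contacts at HOXA, HOXB and HOXC and 3 of those at HOXD. In the 35 cells with at least 100000 reads, the HOXA bins were in contact in 0 and 1 cells, the HOXB bins in 0, 1 and 0, the HOXC bins in 0 and 0, and the HOXD bins in 1 and 3. In these deep cells the HOXD bins had a ratio above 0 in 26 and 23 cells, whereas the other 7 bins did so in 5 to 13.

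Contacts were few at each cluster, in 4 cells at HOXA, 6 at HOXB, 1 at HOXC and 10 at HOXD, so few shared cells are implied by these counts alone. In all, 19 of 84 cells (22.6%, exact 95% interval 14.2 to 33.0%) had at least 1 cluster in contact, 17 of them at a single cluster and 2 at a pair. Cell 12 had contacts at HOXA and HOXD, and cell 48 at HOXA and HOXB. The cells with a HOX contact had a median of 29.4% of covered bins in contact and 45848 reads, against 27.7% and 79028 reads in the 65 cells without. With so few contacts at each cluster, no statement on whether clusters move together is possible.

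In percentage points the surroundings differed more than the clusters did, with 2 Mb flanks at 1.65 to 23.6% and clusters at 0.595 to 5.95%. Mean ratios spanned 0.0699 to 0.715 in the flanks and 0.0375 to 0.289 in the clusters. HOXB and HOXC lay in long regions that seldom met the lamina. The HOXB flanks averaged 1.65% ± 4.57 (SD, n = 84 cells), and all 39 flank bins with values were under 5%. Cluster minus flank was 0.733 ± 7.62 percentage points, with HOXB lower than its flanks in 17 cells, higher in 5 and equal in 62. Such counts lean toward lower by construction, because a few cluster bins are set against many flank bins, and the mean difference is the value to read. The stretch of bins under 20% that holds HOXB ran from 17:44700001, beside a bin without value, to 49400000. The HOXC flanks averaged 3.51% ± 5.90, with a highest bin of 13.1%, and cluster minus flank was -2.92 ± 7.73 points. HOXC lay in a stretch under 20% of 11.2 Mb, 12:47200001 to 58400000, with a mean of 3.33%.

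HOXA lay in a shorter stretch under 20%, 7:25500001 to 28300000 (2.8 Mb, mean 5.78%). Its upper flank contained bins contacted much more often, up to 48.8% at 7:29000001 to 29100000. The upper flank averaged 20.5% ± 20.2 and the lower flank 7.20% ± 11.4. Cluster minus flank was -11.5 ± 15.9 points over 2 Mb on each side, lower at the cluster in 66 cells, higher in 3 and equal in 15. Within 0.5 Mb the sides averaged 4.64% ± 11.2, and the difference was -2.26 ± 12.0 points. HOXA was thus under its wider flanks and close to its immediate sides.

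**Figure D2:**
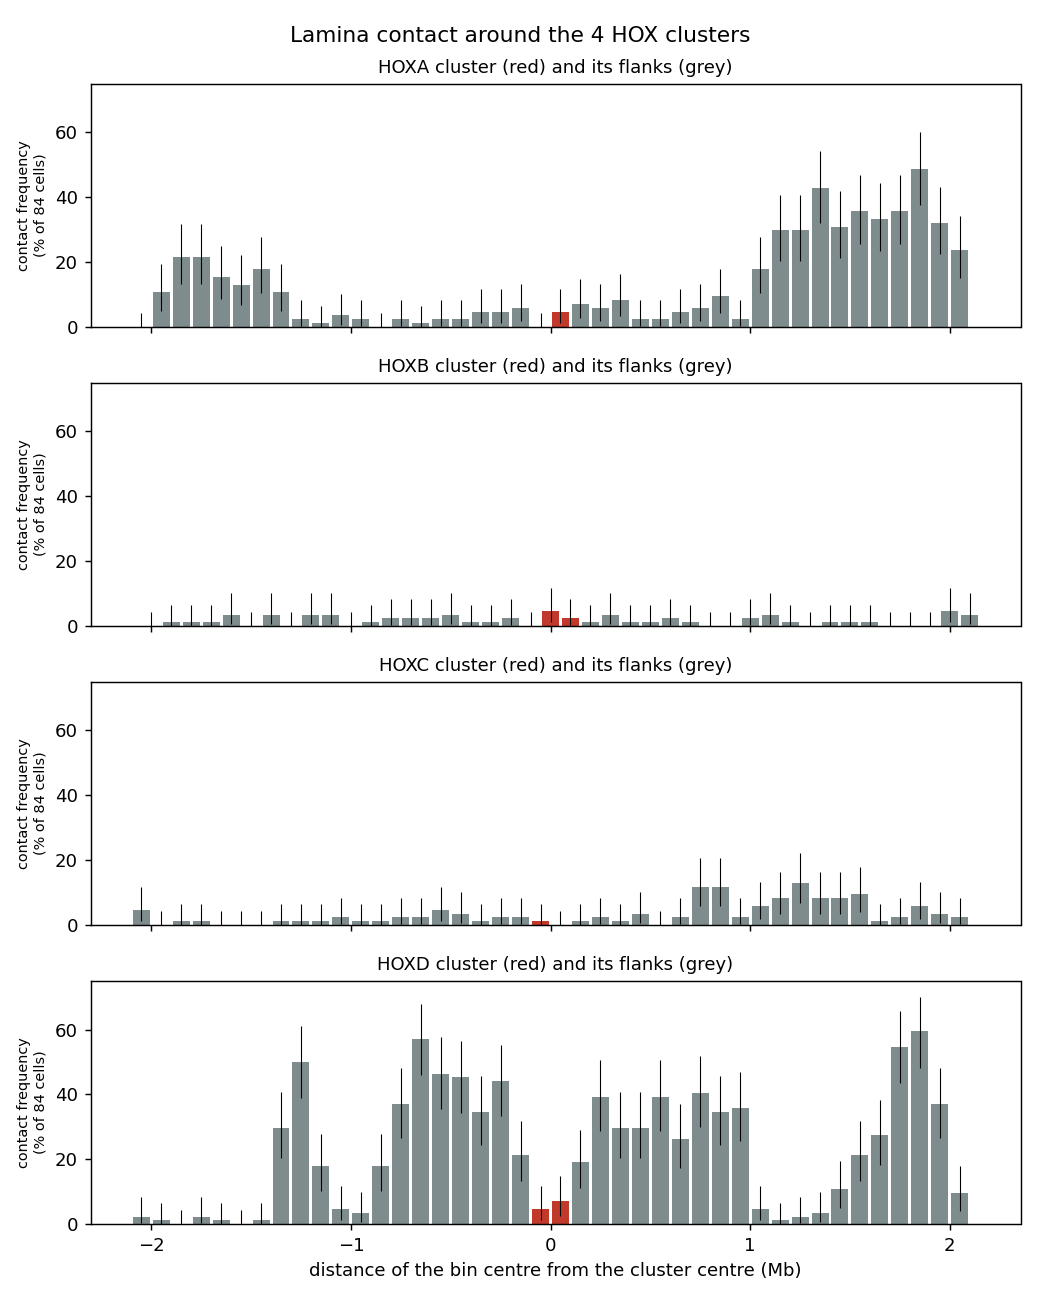
Contact frequency (percent of 84 cells, vertical axis) of each 100 kb bin within about 2 Mb of the centre of a HOX cluster (horizontal axis, Mb). Red bars are cluster bins, grey bars are flank bins and vertical lines are exact 95% intervals. HOXB and HOXC lie on low ground, HOXA has bins of up to 48.8% only beyond 1 Mb, and HOXD at 4.76 and 7.14% stands between sides that reach 57.1 and 59.5%.

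HOXD was a narrow low, with regions that often met the lamina close on both sides. Its lower flank averaged 20.9% ± 17.5 and its upper flank 26.3% ± 21.5 (SD, n = 84 cells), with highest bins of 57.1% at 2:176300001 to 176400000 and 59.5% at 2:178800001 to 178900000. These flanks were mixed and held other lows. Of 20 bins each, the lower flank had 9 under 5% and 9 at 20% or more, and the upper flank had 4 and 13. The bin just below the cluster, 2:176800001 to 176900000, was in contact in 21.4% of cells and the bin below that in 44.0%. The bin just above, 2:177100001 to 177200000, was at 19.0% and the next at 39.3%. The stretch under 20% around HOXD therefore spanned 0.3 Mb, against 2.8 Mb for HOXA.

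Cluster minus flank at HOXD was -17.6 ± 18.1 points over 2 Mb on each side. HOXD was lower than its flanks in 74 cells, higher in 4 and equal in 6. Within 0.5 Mb the sides averaged 34.9% ± 29.6 and the difference was -28.9 ± 27.5 points, with HOXD lower in 66 cells, higher in 2 and equal in 16. The mean ratio told the same order, at 0.289 ± 0.479 in HOXD against 0.964 ± 0.839 within 0.5 Mb of it. Expectations were 390 and 335 in the HOXD bins, against medians of 310.5 and 354 in the lower and upper 2 Mb.

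The clusters were set against all windows of the same number of bins with enough covered flank. Of the 4 clusters, HOXA and HOXD were at least 10 points under their 2 Mb flanks, a size met by 24.0% of windows. HOXD was also at most 10% with both 2 Mb sides at 20% or more, as were 4.29% of windows. For HOXD, 14.0% of windows were at least as far under their flanks, and for HOXA 21.6%. With sides of 0.5 Mb, HOXD alone of the 4 was at least 10 points under, against 12.6% of windows of 2 bins and 13.0% of windows of 3 bins. Of windows, 1.61% were as far under such sides as HOXD, whereas for HOXA, HOXC and HOXB the shares were 30.8, 34.6 and 54.8%. The 0.5 Mb width was added after the data were seen. Its shares therefore give no independent measure of how rare HOXD is. At 2 Mb on each side the share for HOXD was 14.0%. Windows at or under 10% with both 0.5 Mb sides at 20% or more, as HOXD was, made up 1.13% of 25622 windows. Overlapping windows are not independent, and these shares describe the genome of these cells without a test.

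**Figure D3:**
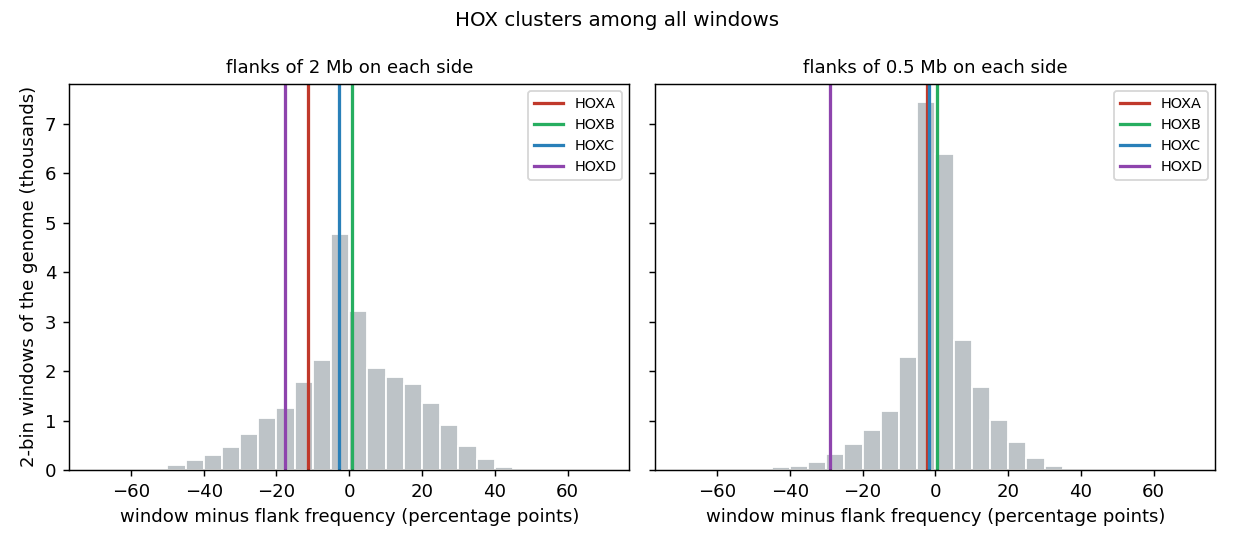
Difference in contact frequency between a window of 2 bins and its flanks (horizontal axis, percentage points) for all windows of the genome (grey), with flanks of 2 Mb (left) or 0.5 Mb (right). Coloured lines mark the clusters, where HOXB has 3 bins. HOXD lies at -17.6 points on the left and at -28.9 on the right, and the other clusters lie between -2.26 and 0.357 on the right.

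The same low was seen within single cells. A side was taken as in contact when at least 3 of its 5 bins within 0.5 Mb were. Both sides of HOXD were in contact in 19 cells, and HOXD itself in 6 of these (31.6%, exact 95% interval 12.6 to 56.6%). In 12 cells only the lower side was in contact, with HOXD in 1, and in 6 cells only the upper side, with HOXD in 1. Neither side was in contact in 47 cells, and HOXD was in 2 of these. For comparison, windows of 2 bins anywhere in the genome were pooled. With both sides in contact, they had a bin in contact in 92.6% of such cells, and both bins in 72.3%. Among the 9940 windows with at least 10 such cells, 2.04% had a share as low as HOXD, and 1.73% had no such cell with both bins in contact. Windows were not matched to HOXD for how often their sides were in contact. The choice of cells with both sides in contact was made after the data were seen.

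**Figure D4:**
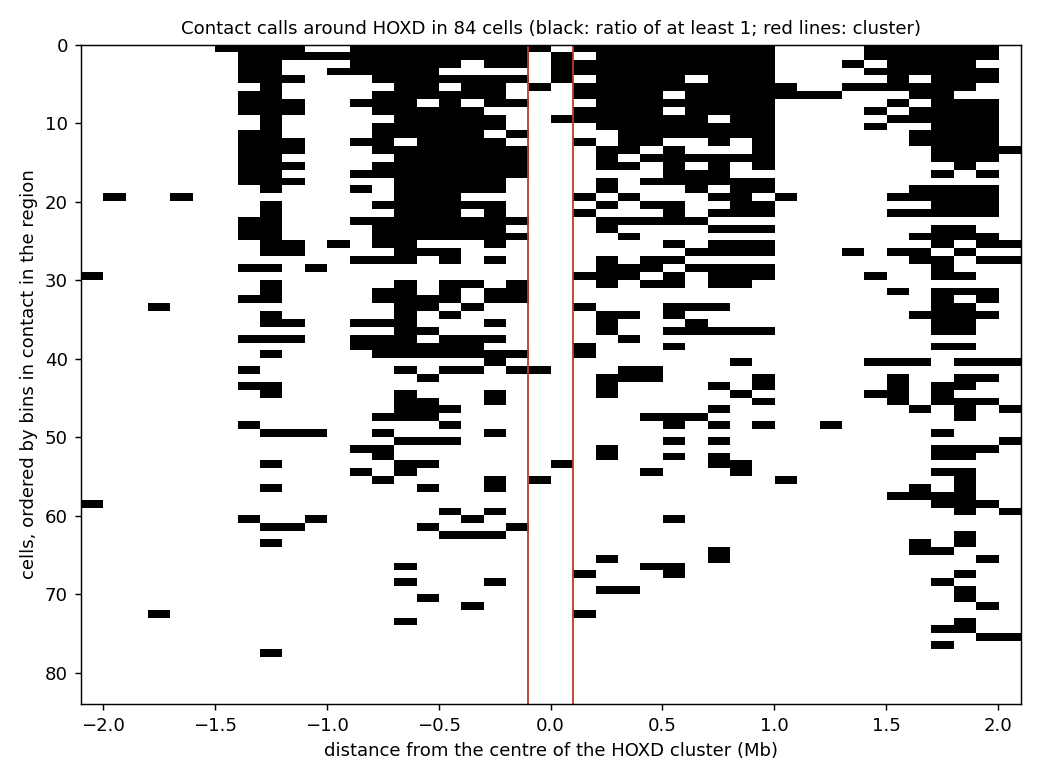
Contact calls in 84 cells (rows, ordered by the number of bins in contact in the region) for each 100 kb bin within about 2 Mb of the HOXD centre (horizontal axis, Mb). Black marks a ratio of at least 1 and red lines bound the cluster. The band between the red lines holds 4 and 6 contacts in its 2 bins, and in 19 cells both sides are black over most of 0.5 Mb.

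The calls were made from the ratios, so the ratios give their size and are not separate evidence. In the 19 cells with both sides in contact, the mean ratio of HOXD had a lowest value of 0, a median of 0.534 and a highest of 1.01, against 1.11, 1.87 and 3.80 for the 10 bins beside it. HOXD was below its sides in all 19, in which the sides had been chosen for contact. HOXD was below its sides in all 12 and all 6 cells with a single side in contact, which were likewise chosen by these side bins. It was below them in 41 of the 47 others, which makes 78 of 84. The same count was 54 for HOXA, 42 for HOXB and 51 for HOXC, and clusters with a ratio of 0 in most cells fall below a mean over more bins easily. Cell 18 came close to its sides, at 3.52 in HOXD against 3.58 beside it. Cells 9, 31, 57 and 64 stood above them, with cell 57 at 1.69 against 1.10 on 2 reads in the cluster, and cells 16 and 26 were at 0 in both. HOXD had a ratio of 0 in 30 cells, 1 of the 19 with both sides in contact and 24 of the 47 with neither. These groups of cells had medians of 184744 and 50096 reads, and the part of depth in this was not tested.

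**Figure D5:**
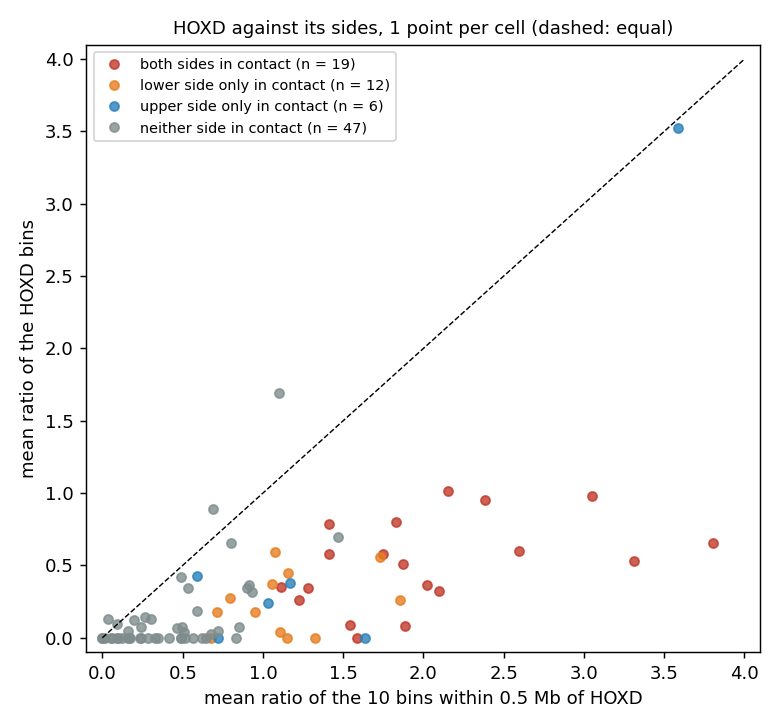
Mean ratio of the 2 HOXD bins (vertical axis) against the mean ratio of the 10 bins within 0.5 Mb (horizontal axis), 1 point per cell, coloured by which sides were in contact. The dashed line marks equal ratios. Of the 84 points 78 lie under the line, including all 19 with both sides in contact.

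The contacts of HOXD with both sides present were not limited to shallow cells. In the 35 cells with at least 100000 reads, HOXD was in contact in 4 of the 12 with both sides in contact (33.3%), against 94.6% for windows over the genome in the same cells. Cells 48, 54, 56, 63, 69 and 79 had neither side in contact, so leaving them out could not change the 6 of 19. The share did depend on the cutoff, at 74.2% with a ratio of 0.5 (23 of 31 cells) and 0% with 1.5 (0 of 9). Windows over the genome were at 94.1 and 90.8% with these cutoffs.

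Each chromosome gave a further frame for its cluster. HOXD had a mean of 5.95%, on chromosome 2 with 29.2% ± 9.57 of bins in contact and a median bin at 17.9%. HOXA had 2.38%, on chromosome 7 with 28.7% ± 10.0 and a median bin at 22.6%. HOXC had 0.595%, on chromosome 12 with 25.4% ± 9.88 and a median bin at 9.52% (SD, n = 84). HOXB at 2.38% was on chromosome 17, which had 8.44% ± 5.58 in contact and whose median bin was also at 2.38%.

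The clusters also share their neighbours, which come in families. The 3 nearest coding genes on each side were read from the order of the GRCh38.p14 gene table and were not placed in bins. CBX3, CBX1 and CBX5, which encode the HP1 proteins that bind methylated histone H3 in silent chromatin, lie beside HOXA, HOXB and HOXC. EVX1 and EVX2, homeobox genes of the even-skipped family, are next to HOXA13 and HOXD13. ATP5MC1, ATP5MC2 and ATP5MC3, for a subunit of the mitochondrial ATP synthase, lie beside HOXB, HOXC and HOXD, and MTX2, for a mitochondrial import protein, follows HOXD1. Families of this kind are known as remains of the duplications that made the 4 clusters. None of these neighbours was given a contact value of its own.

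A microRNA inside the clusters shows the same descent. Genes of miR-196, which targets HOX messages, lie between HOXA9 and HOXA10, between HOXB9 and HOXB13, and between HOXC10 and HOXC9. The mature sequences from RefSeq are shown with the seed, bases 2 to 8, in capitals.
hsa-miR-196b-5p, HOXA locus: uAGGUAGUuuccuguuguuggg
hsa-miR-196a-5p, HOXB and HOXC loci: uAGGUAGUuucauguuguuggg
The copies at HOXB and HOXC give the same mature sequence, and the HOXA copy has the same seed. All of these lie in the clusters with mean contact frequencies of 0.595 to 2.38%.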

How the data were processed

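The deposited table holds observed over expected ratios per 100 kb bin for 168 of the 172 labelled samples. Per the submitters' processing notes, cutadapt, Bowtie2 2.1.0 and hg19 were used. How the authors built the expectation and treated duplicates is not given in the sources used here. Of 30376 bins, 3792 had no value and 170 were 0 throughout. Columns n and n + 86 were averaged. Whole reads were worked back from the steps of the ratios (100% of values above 0 whole within 0.02), and on simulated data of 26399 bins the recovery returned 99.99% of values. Frequencies have exact Clopper-Pearson 95% intervals, which cover counting error only, and a frequency of 0 has a limit of 3 cells of 84. Cells are not replicates, so no p-value was made.

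All 9 HOX bins are reported, flank bins only as highest, lowest or nearest, and sequences by the outermost listed genes. The members, lists and cells left out were chosen with earlier results of these data known. Sides of 0.5 Mb and the cells with both sides in contact were added after seeing the data. The miR-196 sequences were also added then. Gene positions in GRCh38.p14 were not set against the bins. Alternatives were other cutoffs, scaling, columns, cells and flank widths. Python 3.11.15, numpy 2.4.6, pandas 2.3.3 and scipy 1.17.1 were used.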

Additional observations from a re-analysis of the deposited data

How the results depend on the processing

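No paired analysis was possible because the samples form 1 group, so no replicate numbers are shared between groups. Cluster and flank were compared within each cell. Of 222 values under 14 alternatives, 195 stayed within the exact interval of the reported percent, or within 1 SD over cells for flanks and differences. That SD is wide, at 15.9 points for the HOXA difference of -11.5, so a value of -2.26 still counted as within it. For flanks and differences the count therefore says little about stability. The difference between HOXD and its flanks was negative under every alternative run, from -28.9 to -10.3 points, and so was that of HOXA, from -17.6 to -2.26. That of HOXB, near 0, ran from -8.67 to 1.04. Raising the cutoff lowers frequencies by construction. At 0.5, 1.5 and 2 the mean over HOXD bins was 21.4, 1.19 and 1.19%, the share of cells with a HOXD bin in contact 36.9, 2.38 and 2.38%, the share with any HOX bin 48.8, 5.95 and 3.57%, and HOXD among cells with both sides in contact 74.2, 0 and 0%. At 1.5 and 2 the share of cells with a bin in contact was 1.19 and 1.19% for HOXA, 2.38 and 0% for HOXB, and 0 and 0% for HOXC, and the mean over HOXB bins was 0% at 2. HOXC was also at 0% in the higher-numbered columns, in odd-numbered cells and in cells with at least 100000 reads. In odd-numbered cells HOXA was at 0% by both measures, since its 4 contacts were all in even-numbered cells. In even-numbered cells HOXD was at 12.5% of those with both sides in contact (1 of 8), against 45.5% in odd-numbered cells (5 of 11), and the cause was not tested. With flanks of 4 Mb the HOXB flanks were at 11.1% and the difference at -8.67 points, since bins farther out entered. Depth limits the rarer contacts, because a ratio of 1 stood for under 1 read in 12 or 13 cells.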

Other observations

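The flanks of HOXD held further lows of the same kind. At 2:175900001 to 176000000 and the next bin, the contact frequency was 4.76 and 3.57%, with 50.0% at 2:175700001 to 175800000 on the far side and 57.1% at 2:176300001 to 176400000 on the near side. From 2:178000001 to 178400000 the 4 bins were at 4.76, 1.19, 2.38 and 3.57%, between 35.7% just below and 59.5% at 2:178800001 to 178900000. HOXD thus shared its narrow shape with lows on both of its sides. Which genes lie in these bins was not read, since the gene table is of another build.

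In the HOXC flank the highest bins were at 2 places, 11.9% at 12:55100001 to 55200000 and the next bin, and 13.1% at 12:55600001 to 55700000. Around HOXA, the lower flank reached 21.4% at 7:25300001 to 25400000 and the next bin. These bins were named after their values were seen.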
